A study of Mus musculus with 4 samples.

Results

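Galectins read the sugars of the cell surface, and the genes described here encode the Golgi enzymes that build, cap or hide those sugars in mouse macrophages. The members are all symbols in the deposited FPKM tables that start with one of 13 prefixes (B3galt, B3gnt, B4galt, C1galt, Fut, Galnt, Gcnt, Mgat, St3gal, St6gal, St8sia, Man1a and Man2a), 89 of 23284 symbols. Macrophages grown in culture from the bone marrow of wild-type mice were first exposed for 1 h to lipopolysaccharide (LPS, a bacterial cell wall component, 1 µg/ml). A 24 h culture followed, either with recombinant mouse galectin-1 (2 libraries) or with phosphate-buffered saline as vehicle (2 libraries), so that both groups carry the LPS exposure. The sources used here name no age or strain of the mice and no galectin-1 dose, and do not say that libraries of a group came from separate cultures; p-values therefore reflect the spread among these libraries, which may be technical. The study concerned an anti-inflammatory, oligosaccharide-dependent action of galectin-1 on macrophages in colitis.

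Galectin-1 binds galactose-ending units, above all N-acetyllactosamine (LacNAc, galactose on N-acetylglucosamine), alone or repeated as poly-LacNAc chains. On N-glycans such chains grow on branches that the Mgat enzymes start after mannosidases have trimmed the precursor. On O-glycans they grow on arms that Gcnt1 adds to core 1. Sialic acid linked to position 6 of the terminal galactose, the work of St6gal1, is known to prevent galectin-1 binding, whereas sialic acid at position 3, added by St3gal enzymes, is tolerated on LacNAc.

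FPKM are fragments scaled by transcript length and by the fragments mapped in the library, so levels can be set side by side between genes. Library totals were 557661 and 555507 FPKM with galectin-1 and 553191 and 541138 FPKM with vehicle, and the members together held 0.149% to 0.155% of a library's total. Steps between low values put the depth of galectin-1 replicates 1 and 2 and of vehicle replicate 2 at 1.03, 0.872 and 0.969 of vehicle replicate 1; the absolute depth is unknown. All 8 macrophage markers examined were present, and their summed level was 10120 and 10136 FPKM with galectin-1 against 9342 and 9346 FPKM with vehicle. Lyz2 held most of that sum, with 6269 and 6223 FPKM with galectin-1 against 5761 and 5642 FPKM with vehicle, while Mertk lay the other way, at 16.9 ± 0.225 FPKM with galectin-1 and 19.1 ± 1.12 FPKM with vehicle (SD, n = 2 each). The 8 dendritic cell markers summed to 17.2 and 17.8 FPKM with galectin-1 against 22.7 in both vehicle libraries. Most of that sum was Fscn1, with 7.84 and 8.18 against 11.3 and 11.7 FPKM (limma adjusted p = 0.0425, fit described below), and Ccl22, with 7.23 and 7.46 against 8.97 and 9.12 FPKM. Of the 8 markers 5 had a mean below 1 FPKM. Among these Flt3, Zbtb46, Xcr1 and Clec9a had higher means with galectin-1 and Cd209a a lower one. The 7 fibroblast markers summed to 17.3 and 17.8 FPKM with galectin-1 against 14.2 in both vehicle libraries. Summed markers of neutrophils, B and plasma cells, T and NK cells, erythroid cells, and mast cells and basophils stayed under 5 FPKM in every library, with 2 of 6, 0 of 5, 2 of 6, 4 of 5 and 3 of 4 of their genes listed at 0. The part of these markers in the values below was not tested, and in bulk samples fewer cells of a type and less RNA per cell cannot be told apart.

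Of the 89 members, 44 reached a mean of 1 FPKM over the 4 libraries and were tested, 23 lay above 0 but below that mean, and 22 were listed at 0 in every library. The ribosomal gene Rpl26 was also listed at 0 throughout, so a 0 is given only as the listed value. The 44 tested genes covered all 13 roles, from mannose trimming to polysialylation. A few enzymes held most of the signal: the 3 highest, B3gnt2, B4galt5 and Mgat1, made up 43.1% to 44.2% of the summed member level in each library, and the 5 highest, with St3gal1 and Man1a, 55.0% to 56.5%.

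**Figure D1:**
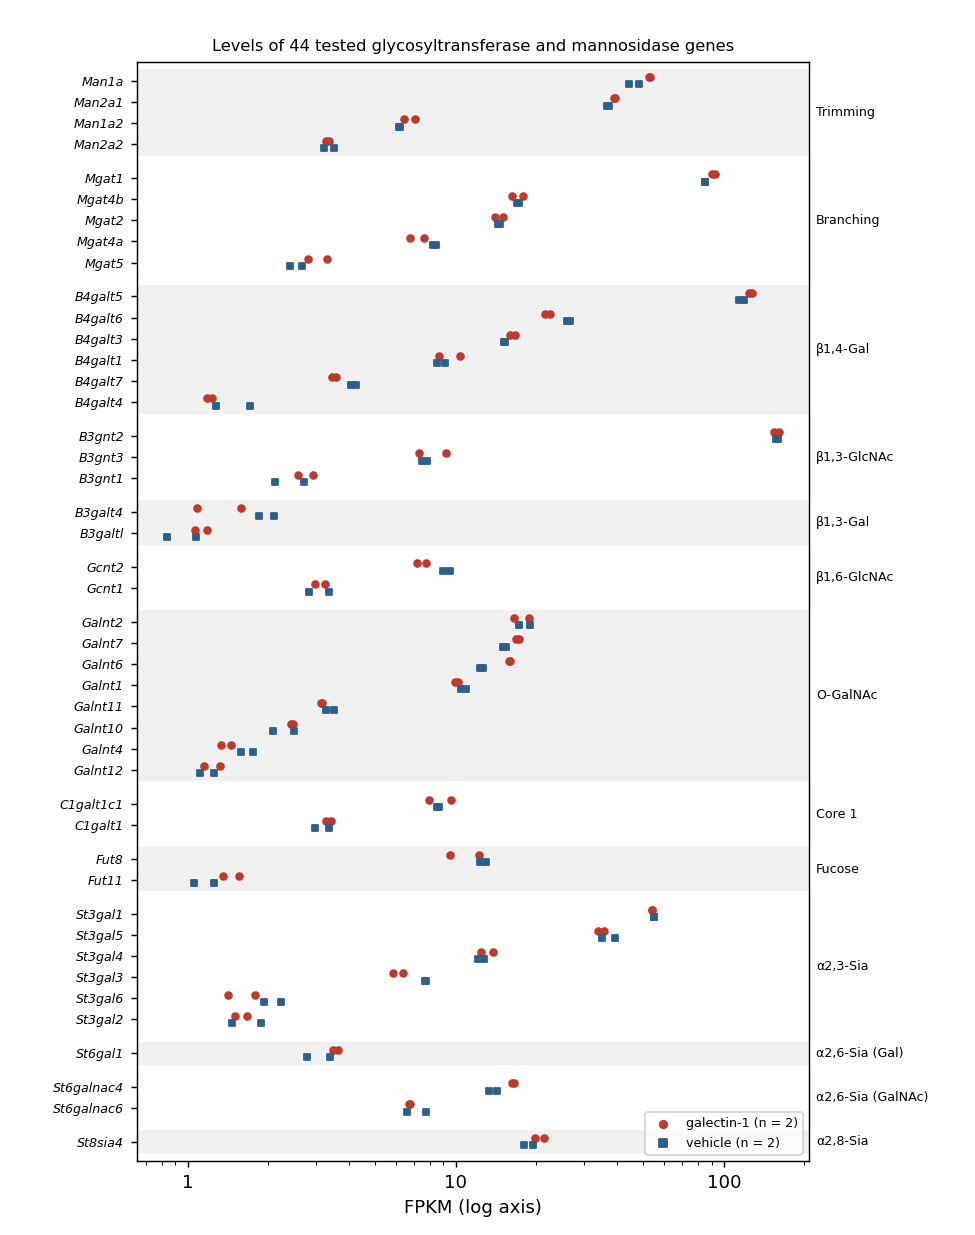
Level of each of the 44 tested members in FPKM on a log axis, in rows by role (Trimming, mannosidases; Branching, Mgat enzymes; Gal, galactosyltransferases; GlcNAc, N-acetylglucosaminyltransferases; Sia, sialyltransferases). Circles are the 2 galectin-1 libraries and squares the 2 vehicle libraries; B3gnt2 at about 157 FPKM and B4galt5 at about 121 FPKM stand highest.

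Galectin-1 and vehicle libraries were compared with limma on log2(FPKM + 1) across the 9380 genes whose mean reached 1 FPKM, and fold changes below are differences on that scale, which understates low genes. Of the 44 tested members none passed a Benjamini-Hochberg adjusted p of 0.05, while 1.19% of all tested genes did (57 higher with galectin-1, or 0.608%, and 55 lower, or 0.586%; 24 and 47 after quantile normalization). At an unadjusted p under 0.05 in limma there were 12 of 44 members, 6 higher and 6 lower, or 27.3%, beside 23.2% of all tested genes. The groups did not overlap for 26 of 44 members, or 59.1%, beside 55.4% of all tested genes. No member lay 1.5-fold or more apart on the log2(FPKM + 1) scale, which 0.821% of all tested genes did. Member differences ran from -0.36 to 0.32 with a median of 0.01, beside a median of 0.00 over all tested genes. The median size, whatever the sign, was 0.11 for members and 0.09 for all tested genes. The members' shares lay near the background and are not a result about the members.

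**Figure D2:**
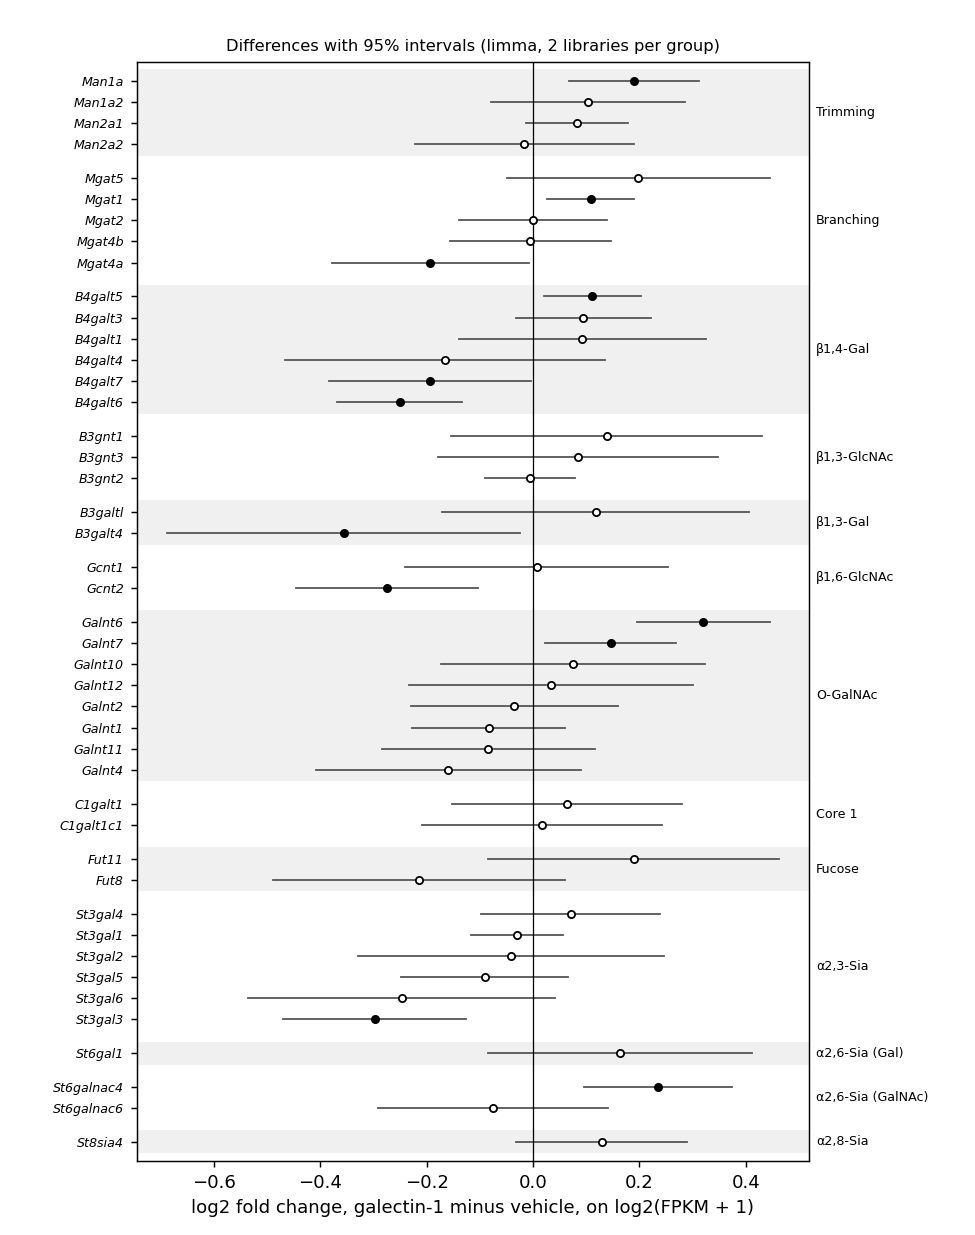
Log2 fold change, galectin-1 minus vehicle, on log2(FPKM + 1) for the 44 tested members, with 95% intervals from limma (2 libraries per group), in rows by role. Filled points mark the 12 members whose interval leaves out 0 before adjustment; none passed the adjusted threshold, and Galnt6 (0.32) and B3galt4 (-0.36) lie at the ends.

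Trimming of the N-glycan precursor in the Golgi was represented by all 4 mannosidase members. Man1a, an alpha-mannosidase that removes outer mannoses, had 52.8 and 53.3 FPKM with galectin-1 against 48.3 and 44.5 FPKM with vehicle. Both galectin-1 libraries lay above both vehicle libraries, with a log2 fold change of 0.19 (standard error 0.05, limma adjusted p = 0.109). Its relative Man1a2 had 6.39 and 7.08 FPKM with galectin-1 against 6.16 and 6.22 FPKM with vehicle, so Man1a stood 7.14 to 8.26 times above it within a library. Man2a1, mannosidase II, which trims again after Mgat1 has acted, had 39.4 and 39.1 FPKM with galectin-1 against 36.6 and 37.4 FPKM with vehicle (log2 fold change 0.08, 95% interval -0.01 to 0.18). Man2a2, its isozyme, averaged 3.32 ± 0.0481 FPKM with galectin-1 and 3.37 ± 0.222 FPKM with vehicle (SD, n = 2 each). The summed level of the 4 genes was 101.9 and 102.7 FPKM with galectin-1 against 94.4 and 91.6 FPKM with vehicle, without overlap. Man1a held 48.5% to 51.9% of that sum. Sums of most other roles lay apart too. So did the sum of all members, at 861.8 and 843.2 FPKM with galectin-1 against 823.1 and 841.3 FPKM with vehicle. The 55.4% of all tested genes without overlap is a share of single genes, and no background was computed for sums. The N-glycan branching sum was 136.7 and 130.6 FPKM with galectin-1 against 126.9 and 128.3 FPKM with vehicle. The alpha-2,3-sialyltransferase sum lay lower with galectin-1, at 108.8 and 113.1 against 114.7 and 117.3 FPKM, and the core 1 sum overlapped.

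N-glycan branching begins with Mgat1, whose product commits a glycan to the hybrid and complex forms. Mgat1 had 92.9 and 90.8 FPKM with galectin-1 against 85.0 and 85.3 FPKM with vehicle. The groups did not overlap, and the log2 fold change was 0.11 (standard error 0.03, limma adjusted p = 0.139). Mgat1 alone held 66.5% to 69.5% of the summed level of the Mgat genes. Mgat2, which starts the second branch, averaged 14.5 ± 0.675 FPKM with galectin-1 and 14.5 ± 0.216 FPKM with vehicle (SD, n = 2 each), and its 95% interval on the log2 scale was -0.14 to 0.14. The further branches are opened by Mgat4a and Mgat4b on one arm and by Mgat5 on the other, where poly-LacNAc is preferentially built. Mgat4a had 7.63 and 6.76 FPKM with galectin-1 against 8.26 and 8.44 FPKM with vehicle, both galectin-1 libraries lower (log2 fold change -0.19, standard error 0.08, limma adjusted p = 0.204; -0.12 without galectin-1 replicate 2). Mgat4b averaged 17.1 ± 1.17 FPKM with galectin-1 and 17.1 ± 0.242 FPKM with vehicle (SD, n = 2 each), with overlapping groups. Mgat5 had 3.30 and 2.82 FPKM with galectin-1 against 2.41 and 2.66 FPKM with vehicle, without overlap but close at the edge (log2 fold change 0.20, 95% interval -0.05 to 0.45, limma adjusted p = 0.303; 0.11 without galectin-1 replicate 1). The level of Mgat1 was 28.1 and 32.2 times that of Mgat5 with galectin-1 against 35.3 and 32.0 times with vehicle, and these ratios overlapped. Mgat3, whose bisecting residue blocks further branching, was listed at 0 in all 4 libraries, as were Mgat4c and Mgat5b.

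Galactose is added to the branches by the B4galt family, which completes LacNAc. B4galt5, known chiefly for making lactosylceramide and so for glycolipids, was the second highest member, with 127 and 124 FPKM with galectin-1 against 114 and 119 FPKM with vehicle. Its galectin-1 libraries were both the higher ones, by a log2 fold change of 0.11 (standard error 0.04, limma adjusted p = 0.157). B4galt6, the other lactosylceramide synthase, pointed the other way, with 22.5 and 21.5 FPKM with galectin-1 against 25.9 and 26.7 FPKM with vehicle. The groups lay apart (log2 fold change -0.25, standard error 0.05, limma adjusted p = 0.0690), which was the second smallest p among the members. Of the alternatives B4galt6 passed only in the fit without small RNA entries (limma adjusted p = 0.0408). It had 0.0712 after quantile normalization and 0.142 in limma without the trend. Within a library B4galt5 stood 5.68 and 5.77 times above B4galt6 with galectin-1 against 4.39 and 4.45 times with vehicle, a ratio without overlap between the groups that was picked after these values were seen. B4galt1, the textbook enzyme of LacNAc on N-glycans, had 8.65 and 10.4 FPKM with galectin-1 against 9.16 and 8.54 FPKM with vehicle. Its groups overlapped and the 95% interval of the log2 fold change was -0.14 to 0.32. B4galt3 averaged 16.3 ± 0.539 FPKM with galectin-1 and 15.2 ± 0.0791 FPKM with vehicle, and B4galt4 averaged 1.21 ± 0.0370 FPKM with galectin-1 and 1.49 ± 0.305 FPKM with vehicle (SD, n = 2 each). B4galt7, which adds galactose to the linker of glycosaminoglycans rather than to galectin ligands, had 3.57 and 3.45 FPKM with galectin-1 against 4.25 and 4.06 FPKM with vehicle, again without overlap (log2 fold change -0.19, limma adjusted p = 0.210). B4galt2 averaged 0.0649 FPKM over the 4 libraries.

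Extension into poly-LacNAc needs a beta-1,3-N-acetylglucosaminyltransferase, and in these cells the step rested at the transcript level on one gene. B3gnt2, the main poly-LacNAc extender, had 160 and 154 FPKM with galectin-1 against 156 and 159 FPKM with vehicle, and held 90.9% to 92.4% of the summed level of its family. The galectin-1 libraries were the highest and the lowest of the 4, so the groups overlapped, and the log2 fold change of -0.01 had a narrow 95% interval of -0.09 to 0.08 (limma adjusted p = 0.933). In the GENCODE M21 annotation 2449 exon bases of B3gnt2 are shared on the same strand with the gene model Gm28048, and the sources used here do not say how such reads were divided. B3gnt3, which extends core 1 O-glycans, had 9.18 and 7.27 FPKM with galectin-1 against 7.48 and 7.83 FPKM with vehicle. The symbol B3gnt1 is a RefSeq synonym of both B3gnt2 and B4gat1, so which enzyme it stands for is not known here. By its symbol it was counted in the family sum above and drawn with this family in the figures. B3gnt1 averaged 2.76 ± 0.261 FPKM with galectin-1 and 2.42 ± 0.421 FPKM with vehicle (SD, n = 2 each). B3gnt5, B3gnt7, B3gnt8, B3gnt9-ps and B3gntl1 had means between 0.614 and 0.845 FPKM, B3gnt4 had 0.0596, and B3gnt6 was listed at 0.

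The stretches before the transcript starts of 3 members are shown because B3gnt2 and B4galt5 had the highest levels and Galnt6, described below, the smallest p. Each is 250 bases long and ends at the base before a RefSeq start (GRCm38.p6, minus strand, written 5′ to 3′ along the gene; for Galnt6 the farther upstream of 2 windows), with GC boxes (GGGCGG on either strand) in capitals. B3gnt2 lies at chr11:22859736-22859985, B4galt5 at chr2:167349179-167349428 and Galnt6 at chr15:100729377-100729626. The B3gnt2 window lies inside the RefSeq span of its gene, which reaches farther upstream, to base 22860336. The B4galt5 and Galnt6 windows adjoin the outer ends of their genes.
B3gnt2: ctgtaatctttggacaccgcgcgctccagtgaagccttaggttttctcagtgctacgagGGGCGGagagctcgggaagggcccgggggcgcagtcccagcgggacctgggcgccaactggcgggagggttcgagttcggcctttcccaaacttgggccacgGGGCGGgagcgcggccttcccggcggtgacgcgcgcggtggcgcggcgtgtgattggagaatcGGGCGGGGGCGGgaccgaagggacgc
B4galt5: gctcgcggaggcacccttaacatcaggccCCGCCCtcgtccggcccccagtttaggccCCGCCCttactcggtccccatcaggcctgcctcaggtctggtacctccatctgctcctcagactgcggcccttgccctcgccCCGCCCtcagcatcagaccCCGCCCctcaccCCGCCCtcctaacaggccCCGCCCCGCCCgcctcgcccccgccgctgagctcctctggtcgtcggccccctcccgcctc
Galnt6: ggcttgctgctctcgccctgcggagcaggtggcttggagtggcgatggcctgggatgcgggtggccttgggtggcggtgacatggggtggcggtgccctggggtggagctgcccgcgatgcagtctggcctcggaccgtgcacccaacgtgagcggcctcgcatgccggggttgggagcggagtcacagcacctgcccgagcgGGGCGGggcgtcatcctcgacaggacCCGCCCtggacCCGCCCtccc
These windows held 4, 7 and 3 GC boxes, and 32.7% of the 32851 windows of the table held at least 1, while 8.47% held 3 or more. Their GC content was 70.0%, 73.2% and 72.8%, beside a median of 52.4% over the table. None of the 3 held the NF-kB consensus, TGANTCA (AP-1 type) or CACGTG (E-box) on either strand, which 5%, 6.75% and 6.02% of all windows held; no match says only that these letters are not in this window.

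Beta-1,3-galactosyltransferases were low. B3galt4, which makes the ganglioside GM1, had 1.58 and 1.08 FPKM with galectin-1 against 2.10 and 1.84 FPKM with vehicle. Both galectin-1 libraries were below both vehicle libraries (log2 fold change -0.36, standard error 0.13, limma adjusted p = 0.194), the most negative value among the members with all libraries. Without galectin-1 replicate 2 it was -0.20, while St3gal3 was -0.35 in that fit. B3galtl, a glucosyltransferase of thrombospondin repeats now named B3glct and thus outside galectin ligand synthesis, averaged 1.12 ± 0.0823 FPKM with galectin-1 and 0.958 ± 0.169 FPKM with vehicle (SD, n = 2 each). B3galt6, another glycosaminoglycan linker enzyme below the test's minimum, had 0.395 and 0.329 FPKM with galectin-1 against 0.670 and 0.543 FPKM with vehicle. B3galt2 had a mean of 0.0122 FPKM, and B3galt1 and B3galt5 were listed at 0.

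Mucin-type O-glycans start when a Galnt enzyme adds N-acetylgalactosamine (GalNAc) to serine or threonine, and of 18 Galnt symbols 8 were tested, 3 lay lower and 7 were listed at 0. Galnt6 had the smallest p of all members, with 15.8 and 15.9 FPKM with galectin-1 against 12.7 and 12.3 FPKM with vehicle. The libraries lay close within each group and apart between groups (ratio of means 1.27, log2 fold change 0.32, standard error 0.05), and limma gave an adjusted p of 0.0555, just short of the threshold. It passed with a pseudocount of 0.1 (adjusted p = 0.0498), with a filter at a mean of 5 FPKM (0.0381) and without small RNA entries (0.0289). In the fits that left out one library the adjusted p was 0.186 to 0.239. Exons of Galnt6 share 441 bases with the antisense gene Galnt6os in GENCODE M21, and the sources used here do not say whether the authors' counting used strand. Galnt7, which prefers substrates that already carry GalNAc, had 16.7 and 17.2 FPKM with galectin-1 against 15.1 and 15.4 FPKM with vehicle, also without overlap (log2 fold change 0.15, standard error 0.05, limma adjusted p = 0.164). The broadly acting initiators did not share this direction. Galnt1 had 10.2 and 9.90 FPKM with galectin-1 against 10.5 and 11.0 FPKM with vehicle (log2 fold change -0.08, 95% interval -0.23 to 0.06; -0.05 without vehicle replicate 2). Galnt2 averaged 17.6 ± 1.62 FPKM with galectin-1 and 18.0 ± 1.18 FPKM with vehicle (SD, n = 2 each), with overlapping groups. Its exons share 3854 bases on the same strand with the gene model Gm20388 in GENCODE M21. How such reads were divided is not stated in the sources used here, which limits the level of Galnt2 and the ratio that follows. The level of Galnt6 was 0.843 and 0.967 times that of Galnt2 with galectin-1 against 0.736 and 0.654 times with vehicle. Galnt3 had a mean of 0.427 FPKM, and Galnt9 and Galntl2 had 0.0137 and 0.00818 FPKM. Galnt4, Galnt10, Galnt11 and Galnt12 had means between 1.21 and 3.29 FPKM and unadjusted p of 0.169 or more.

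**Figure D3:**
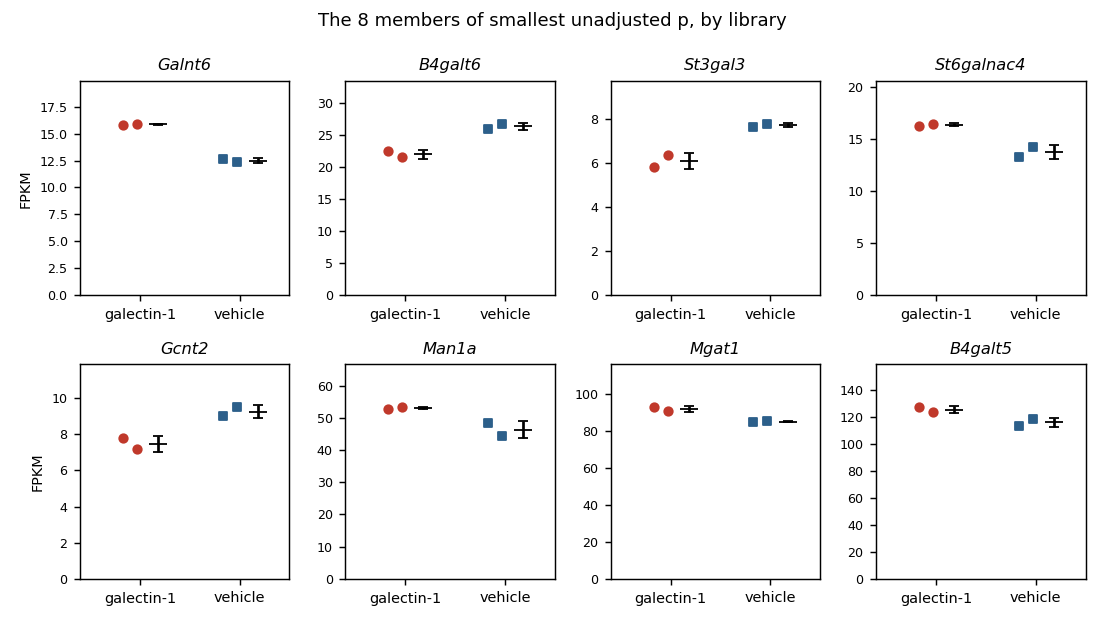
FPKM by library for the 8 members of smallest unadjusted p, in order of p, with each axis starting at 0. Circles are galectin-1 and squares vehicle libraries, and the bar beside each pair is the mean with the SD (n = 2); the groups do not overlap in any panel, as for 55.4% of all tested genes, and the differences are small beside the levels.

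Core 1, galactose on GalNAc, is made by C1galt1 with its chaperone C1galt1c1 (Cosmc). C1galt1 had 3.42 and 3.29 FPKM with galectin-1 against 2.98 and 3.36 FPKM with vehicle, and C1galt1c1 had 9.57 and 7.93 FPKM with galectin-1 against 8.69 and 8.51 FPKM with vehicle. Both genes overlapped between the groups, with limma adjusted p of 0.704 and 0.933. The enzyme stood at 0.358 and 0.414 times its chaperone with galectin-1 against 0.343 and 0.394 times with vehicle. Gcnt1, which opens the core 2 arm that carries LacNAc, had 2.98 and 3.25 FPKM with galectin-1 against 2.83 and 3.37 FPKM with vehicle, so the galectin-1 libraries lay between the vehicle libraries (95% interval -0.24 to 0.25). Gcnt2 forms the branch points of poly-LacNAc known as I antigen. It had 7.77 and 7.16 FPKM with galectin-1 against 8.98 and 9.48 FPKM with vehicle, both galectin-1 libraries lower (ratio of means 0.809, log2 fold change -0.27, standard error 0.07, limma adjusted p = 0.106). Gcnt4 and Gcnt7 had means of 0.0148 and 0.111 FPKM, and Gcnt3 was listed at 0.

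Fucosyltransferases were carried by Fut8, the core fucose enzyme of N-glycans, with 12.2 and 9.52 FPKM with galectin-1 against 12.4 and 13.01 FPKM with vehicle. The group difference came mostly from galectin-1 replicate 2, since replicate 1 lay next to the vehicle libraries (log2 fold change -0.21, standard error 0.11, limma adjusted p = 0.314). Without galectin-1 replicate 2 the log2 fold change was -0.05, and without galectin-1 replicate 1 it was -0.38. Fut11 averaged 1.45 ± 0.137 FPKM with galectin-1 and 1.15 ± 0.141 FPKM with vehicle (SD, n = 2 each). Fut4 and Fut7, which build the Lewis x structures of selectin ligands, had means of 0.942 and 0.129 FPKM; Fut10 had 0.263, the pseudogene Fut4-ps1 0.00901, and Fut1, Fut2 and Fut9 were listed at 0.

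Sialyltransferases that cap galactose at position 3 were all 6 tested. St3gal1, which caps core 1 and competes there with Gcnt1, had 53.8 FPKM in both galectin-1 libraries against 55.1 and 54.7 FPKM with vehicle. The galectin-1 libraries were both lower, by a small margin (log2 fold change -0.03, 95% interval -0.12 to 0.06). Its level was 18.0 and 16.6 times that of Gcnt1 with galectin-1 against 19.5 and 16.2 times with vehicle, with overlap. St3gal5, the GM3 synthase that opens ganglioside synthesis, had 33.8 and 35.8 FPKM with galectin-1 against 35.1 and 39.2 FPKM with vehicle, overlapping. Among the enzymes that act on LacNAc, St3gal4 had 12.4 and 13.8 FPKM with galectin-1 against 12.7 and 12.1 FPKM with vehicle, also overlapping. St3gal3 had 5.84 and 6.36 FPKM with galectin-1 against 7.66 and 7.78 FPKM with vehicle. Here the groups were clearly apart, with the third smallest p of the members (ratio of means 0.790, log2 fold change -0.30, standard error 0.07, limma adjusted p = 0.0966). St3gal6 had 1.41 and 1.79 FPKM with galectin-1 against 2.23 and 1.93 FPKM with vehicle, both lower with galectin-1 (log2 fold change -0.25, standard error 0.12, limma adjusted p = 0.274; -0.14 without galectin-1 replicate 1). Its exons share 1603 bases with Dcbld2 on the opposite strand, a gene at 10.9 and 11.0 FPKM with galectin-1 against 11.7 and 11.5 FPKM with vehicle. St3gal2 averaged 1.59 ± 0.111 FPKM with galectin-1 and 1.67 ± 0.290 FPKM with vehicle (SD, n = 2 each).

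St6gal1, the enzyme whose product masks LacNAc from galectin-1, had 3.65 and 3.48 FPKM with galectin-1 against 3.39 and 2.78 FPKM with vehicle. The groups just failed to overlap, and the 95% interval of the log2 fold change of 0.16 was -0.08 to 0.41 (limma adjusted p = 0.384). Leaving out vehicle replicate 1 gave 0.27, and leaving out vehicle replicate 2 gave 0.06. Its relative St6gal2 was listed at 0 in all libraries. St3gal4 stood 3.40 and 3.97 times above St6gal1 with galectin-1 against 3.75 and 4.36 times with vehicle, and the ratios overlapped.

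Sialylation of GalNAc is the task of the St6galnac family, and St6galnac4, which adds the second sialic acid to capped core 1, led it. St6galnac4 had 16.3 and 16.5 FPKM with galectin-1 against 13.3 and 14.3 FPKM with vehicle. Both galectin-1 libraries were higher (ratio of means 1.19, log2 fold change 0.23, standard error 0.06), and limma gave an adjusted p of 0.10. St6galnac6, which acts on gangliosides, averaged 6.73 ± 0.0227 FPKM with galectin-1 and 7.17 ± 0.854 FPKM with vehicle (SD, n = 2 each). St6galnac2 and St6galnac3 stayed under 0.1 FPKM in every library, and St6galnac1 and St6galnac5 were listed at 0. Polysialic acid chains are built by St8sia4, which had 19.7 and 21.4 FPKM with galectin-1 against 17.9 and 19.5 FPKM with vehicle, the groups nearly touching (log2 fold change 0.13, 95% interval -0.03 to 0.29; 0.07 without galectin-1 replicate 2 and likewise without vehicle replicate 1). St8sia6 had a mean of 0.158 FPKM, St8sia5 of 0.0608 and St8sia1 of 0.00211, and St8sia2 and St8sia3 were listed at 0.

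The 12 members of unadjusted p under 0.05 in limma, 27.3% of those tested beside 23.2% of all tested genes, are listed here by step as a description only, since none passed the adjusted threshold. Both galectin-1 libraries lay above both vehicle libraries for Man1a and Mgat1 in N-glycan maturation, B4galt5 in galactosylation, Galnt6 and Galnt7 in O-glycan initiation and St6galnac4 in O-glycan capping. They lay below both vehicle libraries for Mgat4a in branching, B4galt6, B4galt7 and B3galt4 in galactosylation, Gcnt2 in poly-LacNAc branching and St3gal3 in LacNAc capping. The isozymes B4galt5 and B4galt6 stood on opposite sides, a contrast that was not tested, and the smallest adjusted p among the 44 was 0.0555.

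The supply side of glycosylation was read from 5 lists with 118 genes in all, of which 117 were found outside the members and 100 were tested. None passed the adjusted threshold in limma, and 20 had an unadjusted p under 0.05, 14 higher and 6 lower with galectin-1, or 20% beside 23.2% of all tested genes. Over all tested genes 4754 of 9380 had a positive and 4626 a negative log2 fold change, which is the background for the sign counts that follow. Of 29 tested genes of nucleotide sugar synthesis 15 were positive, with a median log2 fold change of 0.05. Uap1l1, a relative of the enzyme that makes UDP-N-acetylglucosamine, had 117 and 119 FPKM with galectin-1 against 104 and 107 FPKM with vehicle (0.16, limma adjusted p = 0.0848). Nagk, the salvage kinase of N-acetylglucosamine, had 21.1 and 21.5 FPKM with galectin-1 against 24.3 and 25.6 FPKM with vehicle (-0.22, limma adjusted p = 0.0885). These 2 genes lay apart between groups in opposite directions. Of the 10 nucleotide sugar transporters, 9 were negative with a median of -0.09, but 1 had an unadjusted p under 0.05, or 10% beside 23.2% of all tested genes. That gene, Slc35d2, had 2.57 and 2.83 FPKM with galectin-1 against 3.89 and 3.55 FPKM with vehicle (-0.35, limma adjusted p = 0.106). Slc35a4, a Golgi relative of the carrier of UDP-galactose, averaged 16.8 ± 0.355 FPKM with galectin-1 and 18.2 ± 0.591 FPKM with vehicle (SD, n = 2 each; limma adjusted p = 0.272).

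Of 30 genes for assembly and transfer of the N-glycan precursor, 12 were positive, with a median of -0.03. Dad1, a subunit of oligosaccharyltransferase, had 96.3 and 94.5 FPKM with galectin-1 against 85.1 and 84.7 FPKM with vehicle, both higher (0.17, limma adjusted p = 0.0721). Of the alternatives Dad1 passed only in the fit without small RNA entries, at a limma adjusted p of 0.0459. It had 0.122 after quantile normalization and 0.176 in limma without the trend. Early trimming had 7 of 14 tested genes positive with a median of -0.01, and terminal modification and removal had 12 of 17 with a median of 0.03. Among them Man1c1, another Golgi mannosidase, averaged 10.5 ± 0.0671 FPKM with galectin-1 and 8.92 ± 0.443 FPKM with vehicle, and the lysosomal sialidase gene Neu1 averaged 11.3 ± 0.379 FPKM with galectin-1 and 9.52 ± 0.993 FPKM with vehicle (SD, n = 2 each; limma adjusted p = 0.132 and 0.177). The log2 fold change of Neu1 was 0.22 with all libraries and 0.13 without vehicle replicate 2.

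**Figure D4:**
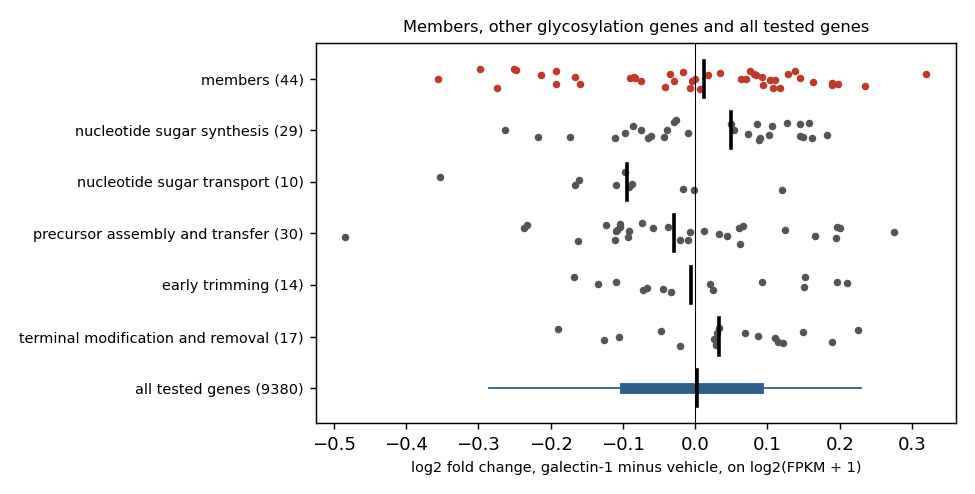
Log2 fold changes, galectin-1 minus vehicle, on log2(FPKM + 1) for the 44 tested members and the tested genes of 5 other glycosylation lists, 1 point per gene with the median as a bar. The bottom row shows all 9380 tested genes by their median, the middle 50% (thick, -0.10 to 0.09) and the range from percentile 5 to percentile 95 (thin, -0.28 to 0.23). The median is -0.09 for nucleotide sugar transport and between -0.03 and 0.05 for the other rows, and the most negative point, -0.48, belongs to precursor assembly and transfer.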

How the data were processed

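Poly(A)-selected stranded libraries were made from total RNA of LPS-treated macrophages seeded at 1000000 cells per well, per the labels' protocols, with 2 galectin-1 and 2 vehicle libraries grouped by their titles. The authors deposited FPKM values, 1 per symbol and library. Per the submitters' processing notes, the build was mm10 and the tools were Cufflinks 2.2.1, TopHat2 2.0.13, SAMtools 0.1.19 and Bowtie2 2.2.3, with no role given; the sources used here do not state the annotation, filters, strand use or handling of reads that map to several places.

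FPKM were used as deposited, as log2(FPKM + 1), for genes whose mean reached 1 FPKM. The groups were compared with limma 3.58.1 (R 4.3.3; empirical Bayes with a variance trend, 2-sided, 2 residual and 3.89 prior degrees of freedom), with Benjamini-Hochberg adjustment over all 9380 genes, after a trial on simulated data. With 2 against 2 libraries the smallest permutation p is 0.333, so none was run. Intervals are 95% limits of limma before adjustment and cover the spread between libraries only. For each gene that spread is a blend of its own variance and the trend over all tested genes, with more weight on the trend. Pearson correlations of log2 values over the 44 tested members were 0.997 between replicates of each group and 0.993 to 0.995 between groups. Over all tested genes the galectin-1 replicates had 0.9876 and the vehicle replicates 0.9825. The latter was below vehicle replicate 2 with galectin-1 replicate 1 (0.9859) and with galectin-1 replicate 2 (0.9834). No more than 1 nonzero value was identical between any pair of libraries.

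The members and lists were chosen with earlier results of these data known. Named were the 15 members of smallest p, the textbook steps of galectin ligand synthesis, the 10 highest members and the 2 highest of each role, and up to 2 genes of smallest p from each other list, of which 1 gene is not reported here. Ratios between genes were picked after their values were seen. RefSeq tables for GRCm38.p6, the assembly of mm10, matched 88 of 89 symbols and supplied the promoter windows; exon overlaps came from GENCODE M21. The 12 alternatives were another pseudocount, 2 filters, 2 scalings, no trend, no small RNA entries, the replicate block and leaving out each library.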

Additional observations from a re-analysis of the deposited data

How the results depend on the processing

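The number of members past the threshold, 0, was 1 with a pseudocount of 0.1, with a filter at a mean of 5 FPKM and with the replicate block (Galnt6, adjusted p = 0.0492 in the last), and 2 without small RNA entries (Galnt6 and B4galt6). It was 0 in the other 8 alternatives, each leave-one-out fit included. Over all tested genes the count of 112 was 3 without a filter, 226 with a filter at a mean of 5 FPKM, 71 after quantile normalization, 2 in limma without the trend, 369 without small RNA entries, 240 with the replicate block and 12 to 16 without one library. Other glycosylation genes went from 0 to 2 without small RNA entries. The cause was not tested. The replicate numbers are not known to pair the libraries: after the group means were removed, the correlation between libraries of the same number was 0.0334.

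Of 41 named genes, 10 turned their sign in at least 1 alternative. Without one library the log2 fold change was -0.035 to 0.022 for B3gnt2, -0.029 to 0.21 for B4galt1, -0.00095 to 0.13 for C1galt1, -0.10 to 0.14 for C1galt1c1, -0.12 to 0.054 for Galnt2, -0.089 to 0.10 for Gcnt1, -0.068 to 0.035 for Man2a2, -0.045 to 0.044 for Mgat2, -0.071 to 0.061 for Mgat4b and -0.00014 to 0.14 for St3gal4, and Man2a2 was 0.027 after quantile normalization. The other 31 of these genes kept their direction in every alternative in which they were tested. With 2 libraries per group and no read counts, the depth behind each value is unknown, and each left-out library leaves one group with a single library that is assumed to vary like the other group.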
